A study of Mus musculus with 8 samples.

Results

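The 10 genes described here mark the stem cells and undifferentiated spermatogonia of the mouse testis: Gfra1, Ret, Zbtb16, Id4, Etv5, Nanos2, Nanos3, Lin28a, Sall4 and Pou5f1. They were chosen by symbol, as known markers of these cells, but with earlier results of these data known. All 10 were found among the 56748 genes of the count table. Transcripts were counted by bulk RNA sequencing of adult testis from mice of genotype Ssty2-/- (4 libraries, called knockout here) and from wild-type mice (4 libraries, WT in the labels). Ssty2 is a gene family repeated many times on the mouse Y chromosome and expressed in spermatids. The labels name no strain, no age beyond adult, and no way of telling whether each library came from its own animal, so the p-values measure the spread between libraries, which may be technical. The comparison asks how transcript levels differ between testis labelled Ssty2 knockout and wild-type testis.

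Spermatogenesis is kept going by a small pool of spermatogonial stem cells on the basement membrane of the tubule. Sertoli cells and peritubular cells secrete the growth factor GDNF, which binds the co-receptor GFRA1 on these germ cells and activates the receptor kinase RET. The signal maintains transcription factors such as ETV5, while the RNA-binding protein NANOS2 holds back differentiation. Cells that lose GFRA1 and NANOS2 go on as progenitors that still hold ZBTB16, SALL4 and LIN28A, and they differentiate once retinoic acid induces the receptor KIT. Such cells are a small minority in adult testis, where meiotic and haploid germ cells prevail, and bulk RNA cannot tell fewer cells of a type from less RNA per cell. Levels are also shares of a library, so a gene's level can fall where other cells give more RNA, which was not tested.

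Library totals ran from 18036708 to 24415587 counts. Pearson's r of log2 CPM (counts per 1000000 counts) was between 0.9852 and 0.9918 within groups and between 0.9586 and 0.9667 across groups. Ssty2 had no count in the 4 knockout libraries and 262 in the wild-type libraries. Levels below are CPM after TMM scaling (a trimmed mean of log ratios between libraries), with mean ± SD and n = 4 per group. A gene was called where edgeR's quasi-likelihood test gave a Benjamini-Hochberg adjusted p under 0.05 over all 21952 tested genes, and all adjusted p-values below come from that test.

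Of the 10 genes, 6 were lower in knockout, 2 were higher, 1 was tested without passing and 1, Nanos2, had too few counts to be tested. Ret, the kinase of the GDNF receptor, fell to 38.0% of its wild-type mean, and Sall4, Lin28a, Zbtb16, Etv5 and Id4 fell by smaller amounts. Gfra1, the other component of the same receptor, rose to 139% of the wild-type mean and Pou5f1 to 167%. Values of the groups did not overlap for 7 of the 10 genes, 6 lower and 1 higher, beside 46.7% of all tested genes (24.0% lower, 22.7% higher). Change was common in these libraries: 53.5% of all tested genes were called, 26.2% as higher and 27.4% as lower in knockout. Of the 9 tested genes 8 were called, and their median log2 fold change was -0.66, beside -0.01 over all tested genes. With library totals in place of TMM the median over all genes moved to -0.15 and the split of all calls from 5744 higher and 6008 lower to 3848 and 8255 (55.1% called, 17.5% higher and 37.6% lower), while 2 of the 10 genes were again called higher and 6 lower. The plot of levels by library shows all 10 genes.

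**Figure D1:**
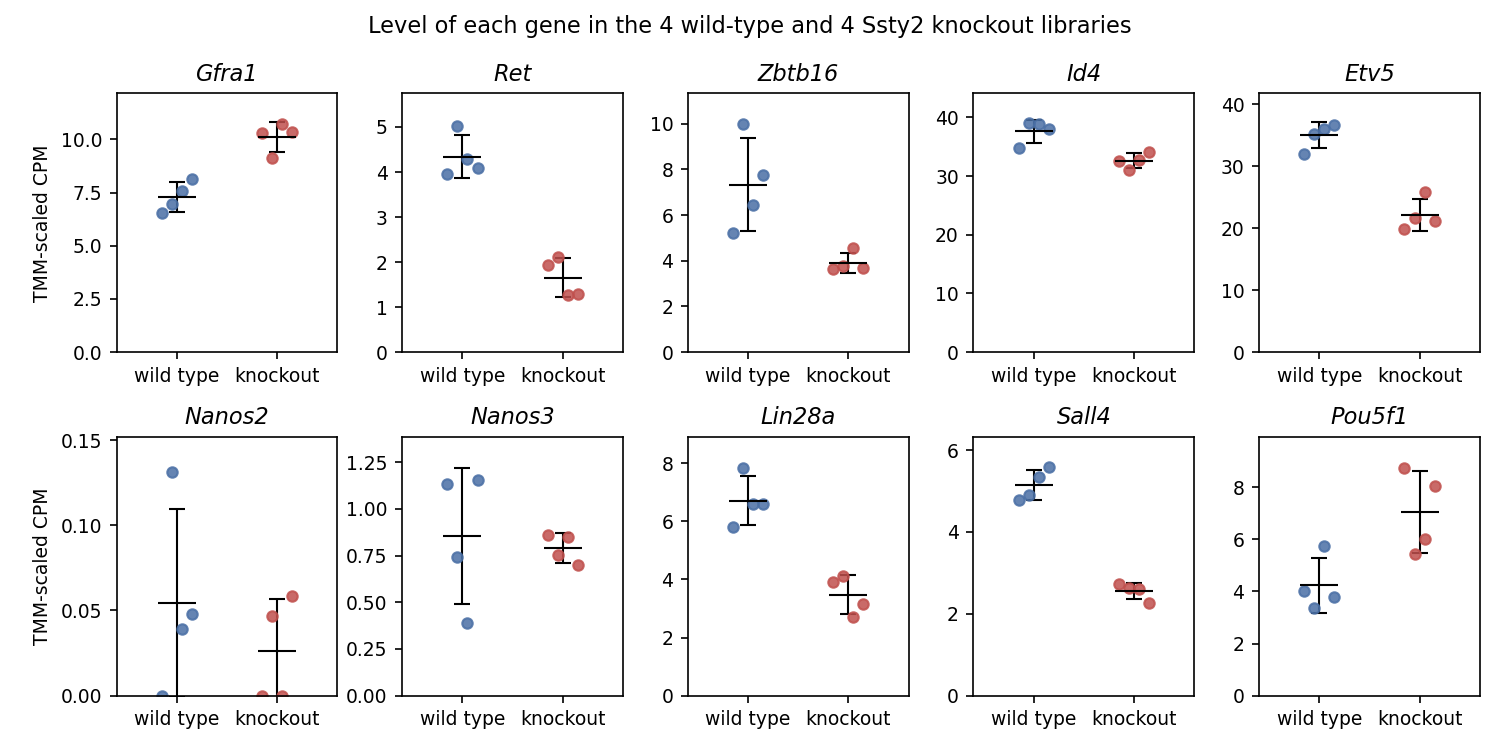
TMM-scaled CPM of each of the 10 genes in the 4 wild-type (blue) and 4 knockout (red) libraries, on vertical axes that start at 0 and differ between panels. Points are libraries, horizontal bars the group means and error bars the SD, which for Nanos2 reaches below 0 and is not drawn there; for 6 genes the red points all lie below the blue ones, and for Gfra1 all above.

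The receptor genes moved apart. Ret stood at 3.96, 5.03, 4.28 and 4.09 CPM in wild-type replicates 1 to 4 and at 1.93, 2.11, 1.28 and 1.28 CPM in knockout replicates 1 to 4. Every knockout library was below every wild-type library. The log2 fold change was -1.39 ± 0.19 (SE, n = 4 per group, adjusted p = 1.71e-05), and 1.49% of all tested genes had a fold change as low or lower.

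Gfra1 encodes the GPI-anchored co-receptor that binds GDNF and presents it to RET. It stood at 6.54, 6.95, 7.59 and 8.13 CPM in wild-type replicates 1 to 4 and at 10.3, 9.11, 10.7 and 10.4 CPM in knockout replicates 1 to 4. Here the knockout libraries were all above the wild-type libraries, and the log2 fold change was 0.47 ± 0.11 (SE, n = 4 per group, adjusted p = 0.00206). A rise of this size or more was common, in 17.5% of tested genes. Within the annotation Gfra1 shares 416 exon bases with Gm16277 on the opposite strand, and whether the counting used strand is not given; Gm16277 itself had 6 counts in knockout and 13 in wild type, against 791 and 650 for Gfra1.

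The ratio of both receptor transcripts within a library does not depend on scaling between libraries. There were 1.65, 1.38, 1.77 and 1.98 Gfra1 counts for each Ret count in wild-type replicates 1 to 4, and 5.27, 4.27, 8.27 and 7.93 in knockout replicates 1 to 4 (0.5 added to each count). The lowest knockout ratio lay above the highest wild-type ratio. On average it was 3.69-fold higher in knockout, a log2 difference of 1.88 (two-sided exact permutation p = 0.0286, the smallest that 4 against 4 libraries allow, and 0.0381 adjusted over the 4 ratios computed). Since Gfra1 was higher and Ret lower in every knockout library, this ratio had to separate. Its p therefore adds no support beyond the 2 genes themselves.

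Transcription factors made up the largest group among the 10 genes, and 4 of these 5 fell. Etv5, an ETS factor that GDNF and FGF signals induce in stem cells and that Sertoli cells also express, stood at 32.0, 35.3, 36.1 and 36.6 CPM in wild-type replicates 1 to 4. In knockout replicates 1 to 4 it stood at 19.9, 21.6, 25.9 and 21.2 CPM. The groups did not overlap, and the log2 fold change was -0.66 ± 0.09 (SE, n = 4 per group, adjusted p = 1.03e-05). Of the 31-base words in Etv5 transcripts, 30.3% also occur in Gm4798, which had 23 counts in knockout and 8 in wild type against 1745 and 3116 for Etv5.

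Sall4 encodes a zinc finger factor that undifferentiated spermatogonia share with embryonic stem cells. It stood at 4.79, 4.90, 5.34 and 5.58 CPM in wild-type replicates 1 to 4 and at 2.74, 2.63, 2.60 and 2.27 CPM in knockout replicates 1 to 4, with no overlap. Its log2 fold change was -1.0 ± 0.14 (SE, n = 4 per group, adjusted p = 2.64e-05). The SD between libraries, 7.20% of the mean in wild type and 7.88% in knockout, was no larger than counting error alone would give (9.35% and 14.1%).

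Zbtb16 encodes PLZF, the repressor whose loss in luxoid mice exhausts the stem cell pool. Its wild-type values were spread, at 5.20, 9.97, 6.43 and 7.74 CPM in replicates 1 to 4, a coefficient of variation of 27.8% against 7.81% from counting error. In knockout it was at 3.65, 3.76, 4.54 and 3.67 CPM, below all of these. The log2 fold change was -0.91 ± 0.18 (SE, n = 4 per group, adjusted p = 0.000483), and without wild-type replicate 2 it was -0.73 (adjusted p = 0.00234).

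Id4 encodes an inhibitor of basic helix-loop-helix factors and marks the cells with the highest stem cell activity. It stood at 34.8, 39.1, 38.8 and 37.9 CPM in wild-type replicates 1 to 4 and at 32.6, 31.0, 32.7 and 34.1 CPM in knockout replicates 1 to 4. The highest knockout library, at 34.1 CPM, came close to the lowest wild-type library, at 34.8 CPM. The log2 fold change was -0.21 ± 0.07 (SE, n = 4 per group, adjusted p = 0.0152), and 35.3% of all tested genes were as low or lower. Scaled by library totals it was -0.35 (adjusted p = 0.000514).

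Id4 fell less than Zbtb16 in the same libraries. There were 6.67, 3.91, 6.03 and 4.89 Id4 counts per Zbtb16 count in wild-type replicates 1 to 4 and 8.87, 8.20, 7.17 and 9.24 in knockout replicates 1 to 4. The ratio was 1.58-fold higher in knockout, without overlap (two-sided exact permutation p = 0.0286, 0.0381 adjusted over the 4 ratios). The exact permutation p was 0.0571 when any one of the 4 knockout libraries was left out, with log2 differences of 0.61 to 0.73 beside 0.66 with all libraries.

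Pou5f1 encodes OCT4, the pluripotency factor of the early embryo and germline, whose transcript is low in adult spermatogonia. It stood at 4.01, 3.37, 5.76 and 3.80 CPM in wild-type replicates 1 to 4 and at 8.75, 5.45, 6.01 and 8.03 CPM in knockout replicates 1 to 4. Wild-type replicate 3 reached above knockout replicate 2, so the groups overlapped. The log2 fold change was 0.72 ± 0.19 (SE, n = 4 per group, adjusted p = 0.00373), and 0.91 without wild-type replicate 3. Libraries of a group differed by more than counting error, with a coefficient of variation of 24.9% in wild type and 22.4% in knockout against 10.2% and 8.57%.

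Reads assigned to Pou5f1 could come partly from elsewhere, since 14.2% of its 31-base words occur in other genes, led by the antisense gene Gm19553. That gene had 1 count in knockout and none in wild type. Gm5712 and Gm21054 also share words with Pou5f1, and their counts were not examined. There were 0.840, 0.689, 1.08 and 0.682 Pou5f1 counts for each Sall4 count in wild-type replicates 1 to 4, and 3.17, 2.06, 2.30 and 3.51 in knockout replicates 1 to 4. This ratio was 3.34-fold higher in knockout, with no overlap (two-sided exact permutation p = 0.0286, 0.0381 adjusted over the 4 ratios). It sets a gene called higher against one called lower, so its p is not independent of those calls. The plot of ratios shows the 4 pairs by library.

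**Figure D2:**
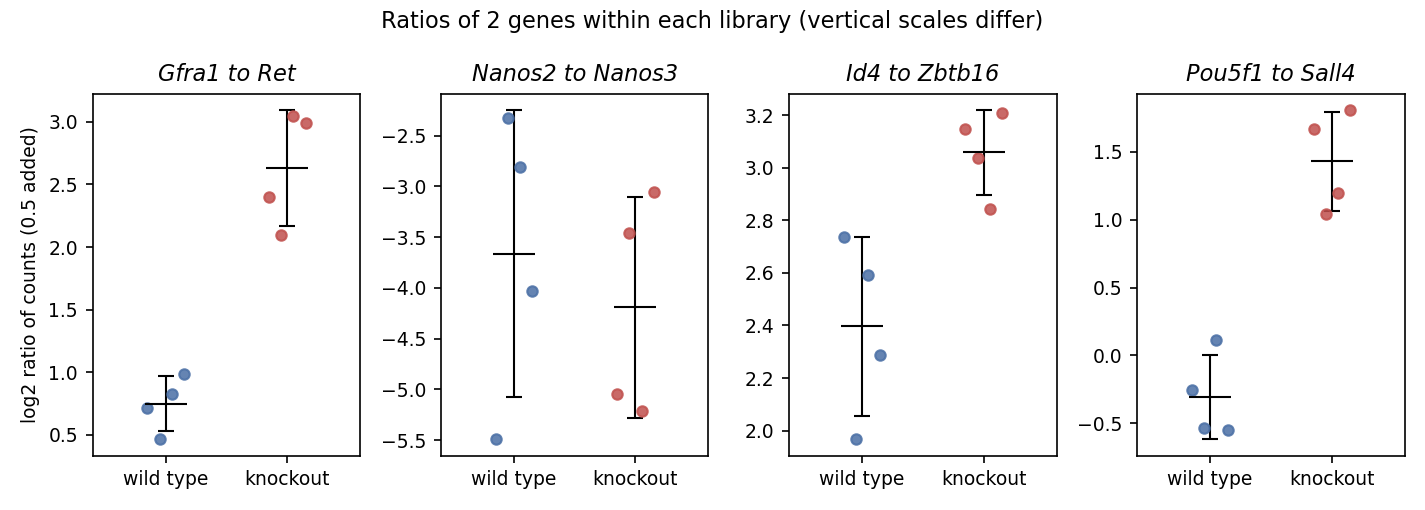
Log2 ratio of the counts of 2 genes within each library (0.5 added to each count), for Gfra1 to Ret, Nanos2 to Nanos3, Id4 to Zbtb16 and Pou5f1 to Sall4, with vertical axes that differ. Points are libraries, bars the mean and SD of 4; knockout lies above wild type without overlap in 3 of the 4 panels, and the Nanos2 to Nanos3 panel overlaps.

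The start regions of the 2 genes that rose are shown with those of 2 that fell, Id4 and Etv5, as examples of members that moved in opposite directions. RefSeq windows of 300 bases (250 before to 50 after an annotated start, build GRCm38.p6) were matched for 7 of the 10 genes. They are written 5′ to 3′ on the strand of the gene, with capitals for GGGCGG, the GC box bound by SP factors, and for AGGTCA, the half-site of nuclear receptors, on either strand. The positions are chr19:58455349-58455648 (minus strand) for Gfra1, chr17:35505782-35506081 (plus) for the first of 2 Pou5f1 windows, chr13:48260866-48261165 (plus) for Id4 and chr16:22439521-22439820 (minus) for the first of 2 Etv5 windows.
Gfra1: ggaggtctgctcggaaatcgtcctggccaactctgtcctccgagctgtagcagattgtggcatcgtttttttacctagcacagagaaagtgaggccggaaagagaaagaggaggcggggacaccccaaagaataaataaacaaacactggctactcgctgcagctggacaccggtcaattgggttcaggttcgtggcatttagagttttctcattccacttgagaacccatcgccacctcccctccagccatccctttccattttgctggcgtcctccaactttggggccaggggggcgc
Pou5f1: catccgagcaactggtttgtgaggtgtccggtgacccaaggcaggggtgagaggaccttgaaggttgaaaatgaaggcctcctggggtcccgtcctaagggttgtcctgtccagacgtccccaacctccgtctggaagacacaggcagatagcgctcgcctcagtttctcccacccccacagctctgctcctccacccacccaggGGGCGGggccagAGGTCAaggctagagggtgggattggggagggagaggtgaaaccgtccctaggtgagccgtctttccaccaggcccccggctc
Id4: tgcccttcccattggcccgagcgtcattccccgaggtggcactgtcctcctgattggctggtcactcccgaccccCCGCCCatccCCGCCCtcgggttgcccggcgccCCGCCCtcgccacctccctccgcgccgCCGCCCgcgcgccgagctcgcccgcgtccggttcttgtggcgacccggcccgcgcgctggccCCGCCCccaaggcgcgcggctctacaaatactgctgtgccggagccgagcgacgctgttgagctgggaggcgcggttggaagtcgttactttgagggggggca
Etv5: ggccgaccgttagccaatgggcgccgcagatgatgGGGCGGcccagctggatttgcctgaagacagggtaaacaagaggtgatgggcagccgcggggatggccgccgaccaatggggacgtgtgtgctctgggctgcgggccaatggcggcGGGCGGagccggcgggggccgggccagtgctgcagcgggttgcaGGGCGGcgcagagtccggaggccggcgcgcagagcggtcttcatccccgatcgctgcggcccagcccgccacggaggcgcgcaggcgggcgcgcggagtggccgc

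GGGCGG occurred 5 times in the Id4 window and 3 times in the first of Etv5, once each in the first of Pou5f1 and those of Lin28a and Nanos3, and not in those of Gfra1 and Nanos2. Of all 32851 windows in the RefSeq set, 35.7% hold it. AGGTCA occurred in the first Pou5f1 window, in that of Nanos2 and in 16.3% of all windows. Ret, Zbtb16 and Sall4, which fell, had no window to search. The printed windows held 39 CpG dinucleotides for Id4, 37 for Etv5, 12 for Gfra1 and 11 for Pou5f1, beside a median of 7 over all windows. Lin28a, which fell, had 10, and the second windows of Etv5 and Pou5f1 had 19 and 6 and no GGGCGG. Also searched on both strands were CCAAT (in 37.4% of all windows), the E-box CANNTG (72.3%), the TATA box TATAAA (13.6%) and the ETS core AGGAAG (35.4%). Overlapping matches were counted. No binding was measured, so these matches describe the sequence only. All 10 genes lie on different autosomes.

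The RNA-binding proteins of the set went from a clear fall to no detectable change. Lin28a encodes the protein that blocks maturation of let-7 miRNAs and marks progenitors. It stood at 5.82, 7.83, 6.58 and 6.59 CPM in wild-type replicates 1 to 4 and at 3.92, 4.13, 2.70 and 3.14 CPM in knockout replicates 1 to 4. There was no overlap between the groups, and the log2 fold change was -0.95 ± 0.16 (SE, n = 4 per group, adjusted p = 0.000103). Its relative Lin28b, at 13.7 ± 0.632 CPM in wild type and 11.8 ± 1.98 in knockout, did not pass (log2 fold change -0.22, 95% interval -0.45 to 0.02, adjusted p = 0.112).

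Nanos3, which primordial germ cells need to survive and which adult progenitors express, stood at 1.13, 0.744, 0.389 and 1.15 CPM in wild-type replicates 1 to 4 and at 0.859, 0.751, 0.852 and 0.699 CPM in knockout replicates 1 to 4. The knockout values lay inside the wild-type range. The log2 fold change was -0.08 with a 95% interval from -0.77 to 0.62 (adjusted p = 0.856). The interval reaches well into both directions, from 62 counts in knockout and 73 in wild type.

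Nanos2, the translational repressor that keeps stem cells undifferentiated, was at the limit of detection. It had 0, 3, 1 and 1 counts in wild-type replicates 1 to 4 and 0, 1, 0 and 1 in knockout replicates 1 to 4. Scaled for depth, knockout was at 45.4% of wild type with a 95% counting interval from 4.32% to 277%. That interval is too wide to show a fall, a rise or the lack of either. The Nanos2 to Nanos3 ratio overlapped between the groups (two-sided exact permutation p = 0.600). Nanos1, a relative expressed beyond spermatogonia, fell from 3.85 ± 0.780 to 2.01 ± 0.142 CPM (log2 fold change -0.94, adjusted p = 0.000349); it is named here as a relative, after its value was seen.

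**Figure D3:**
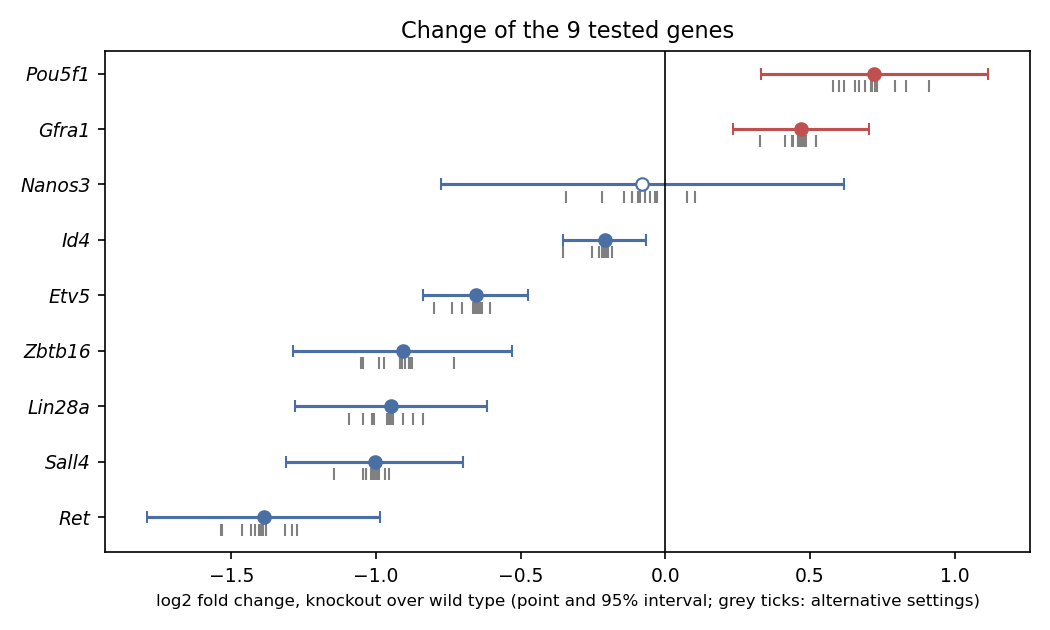
Log2 fold change of knockout over wild type for the 9 tested genes, from edgeR's quasi-likelihood fit, with 95% intervals. Filled points passed at adjusted p under 0.05 and the open point, Nanos3, did not; grey ticks give the values under the alternative settings, which cross 0 for Nanos3 alone among these genes.

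Compared per length (CPM per kilobase of exons, wild-type means), Id4 was the most abundant of the 10 genes at 9.78, followed by Etv5 at 8.53. The next 4, Pou5f1 at 1.88, Lin28a at 1.68, Zbtb16 at 1.39 and Gfra1 at 1.33, overlapped each with its neighbour in this order. Sall4 at 0.930, Nanos3 at 0.925 and Ret at 0.642 also overlapped with their neighbours, and Nanos2 was lowest at 0.0349. In knockout the order began with Id4 at 8.47, Etv5 at 5.41, Pou5f1 at 3.14 and Gfra1 at 1.85 CPM per kilobase, each apart from the next. Ret, at 0.244, was again the lowest but for Nanos2.

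Some libraries stood out across several of these genes. Wild-type replicate 1 was the lowest of its group for 7 of the 9 tested genes, Gfra1 among them, replicate 2 was the highest for Ret, Zbtb16, Id4 and Lin28a, and replicate 4 for Gfra1, Etv5, Nanos3 and Sall4. Among knockout libraries no such pattern was seen, with 1 to 3 genes highest in each. Leaving out any one of these 3 wild-type libraries changed no call among the 10 genes.

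Of 29 further genes of undifferentiated spermatogonia, 26 were tested. In this list 14 were lower, none was higher and 12 did not pass, with a median log2 fold change of -0.45, beside 27.4% lower and 26.2% higher over all tested genes. Uchl1, a deubiquitinase used as a spermatogonial marker, fell from 60.5 ± 3.80 to 35.1 ± 3.50 CPM (adjusted p = 6.01e-07). Sox3, an X-linked progenitor factor, fell from 6.06 ± 0.949 to 2.57 ± 0.155 CPM. Adgra3, the orphan receptor GPR125 of stem and progenitor cells, fell by 0.63 and the stress-induced mTORC1 inhibitor gene Ddit4 by 1.02 on the log2 scale.

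Eomes, a T-box factor of part of the Gfra1-positive stem cells, fell furthest and was picked out after its value was seen. It stood at 0.566, 0.787, 0.857 and 0.962 CPM in wild-type replicates 1 to 4 and at 0.215, 0.188, 0.0473 and 0 CPM in knockout replicates 1 to 4. That is 9 counts in knockout against 71 in wild type, a log2 fold change of -2.73 with a 95% interval from -3.78 to -1.68 (adjusted p = 0.000241). Shisa6, another marker of such cells named after its value was seen, did not pass (log2 fold change 0.33). Pax7, Neurog3 and Pdx1 had too few counts to be tested.

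The GDNF pathway was mixed. Of 26 ligands, receptors and signal carriers, 22 were tested, 12 were lower and 5 higher. Over all tested genes, 27.4% were lower and 26.2% higher. Gdnf itself had 93 counts in knockout and 140 in wild type and did not pass (log2 fold change -0.41, 95% interval -0.98 to 0.17, adjusted p = 0.220). Lower were the adaptor phosphatase gene Ptpn11 (-0.59 on the log2 scale), the SRC-family kinase gene Fyn (-0.60) and the survival kinase gene Akt1 (-0.61). The 5 higher genes were the related co-receptor genes Gfra2 (0.29) and Gfra4 (0.29), the ligand gene Artn (0.32), the alternative GDNF receptor Ncam1 (0.32) and Mapk3 (0.25), and none of these 5 passed when libraries were scaled by their totals (adjusted p = 0.0753, 0.210, 0.206, 0.117 and 0.0688 in that order). Artn also missed the threshold with no filter on low counts, by DESeq2 and when any one of 4 libraries was left out (knockout replicate 2 and wild-type replicates 2, 3 and 4; adjusted p = 0.0567 to 0.104 over these settings), and Gfra4 without knockout replicate 1 or wild-type replicate 4 (0.0602 and 0.0713). Without wild-type replicate 4 the number of higher genes in this list was 3.

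Of 9 genes known to respond to GDNF in cultured spermatogonia, 7 were tested. Ccnd2, a G1 cyclin gene, fell from 8.34 ± 1.13 to 4.43 ± 0.739 CPM (adjusted p = 6.36e-05). Mycn fell by 1.13 and the POU factor gene Pou3f1 by 1.50 on the log2 scale. The immediate early gene Egr3 rose by 0.45. Bcl6b, at a log2 fold change of -0.02, and Lhx1, at -0.83 with a 95% interval from -1.93 to 0.27, did not pass, nor did the CXCL12 receptor gene Cxcr4 at -0.49 (adjusted p = 0.0639). In total, 3 of the 7 were lower and 1 was higher, beside 27.4% lower and 26.2% higher over all tested genes. The number lower was 6 with no filter on low counts, where all 9 were tested, and 5 without wild-type replicate 4.

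Of 16 tested niche factors and their receptors, 13 were lower, none was higher and 3 did not pass (median log2 fold change -0.70), beside 27.4% lower over all tested genes. Cxcl12, a chemokine of Sertoli cells that attracts stem cells, fell from 25.6 ± 0.533 to 11.6 ± 1.49 CPM (adjusted p = 8.18e-08). Fgfr2, a receptor for FGF signals, fell by 1.30, the KIT ligand gene Kitl by 0.89 and Igf1r by 0.84 on the log2 scale.

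Partners and relatives of the members changed in both directions. Of 17 RNA-binding partners of NANOS and LIN28, 7 were lower and 2 higher with a median of -0.19, beside 27.4% lower and 26.2% higher over all tested genes. Scaled by library totals these were 11 and 1, beside 37.6% lower and 17.5% higher over all tested genes. Dazl, a translational activator of germ cells, fell by 0.76, Cpeb1 by 0.64 and the deadenylase gene Cnot8 by 0.47 on the log2 scale. Dis3l2, an exonuclease gene of the let-7 pathway, rose by 0.32 and Igf2bp3 by 0.21, and the latter did not pass with library totals (adjusted p = 0.261).

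Of 23 tested relatives and partners of ID4, SALL4, ETV5 and POU5F1, 8 were lower and 3 higher (median -0.10), or 12 and 1 with library totals. Over all tested genes 27.4% were lower and 26.2% higher, or 37.6% and 17.5% with library totals. The E protein genes Tcf3 and Tcf12, whose products ID proteins bind, fell by 0.72 and 0.78, and Rbbp7, a subunit of the NuRD complex that SALL4 recruits, fell by 0.77. Klf4 (0.50), Sall3 (0.37) and Mta1 (0.17) were higher, of which Sall3 and Mta1 did not pass with library totals (adjusted p = 0.104 and 0.727), and Mta1 did not pass with no filter on low counts or without wild-type replicate 2 or 3 either (0.0530, 0.0563 and 0.0559). In the main fit, the shares of these lists called in either direction lay near or below the 53.5% over all tested genes.

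Most markers of the next stage were lower too, with a median change near that of the members. Of 13 genes of differentiating spermatogonia, 9 were lower and 1 higher (median log2 fold change -0.62), beside 27.4% lower and 26.2% higher over all tested genes. Kit fell from 37.7 ± 5.15 to 21.8 ± 3.34 CPM (adjusted p = 1.78e-05), and the transcription factor gene Dmrt1 by 0.78 and the Polycomb gene Scml2 by 0.72 on the log2 scale. Dmrtb1, which controls the entry into meiosis, was the only called gene that rose, at 450 ± 17.0 CPM in wild type and 572 ± 15.3 in knockout. It made up most of the list's summed level, which did not fall. That level was 688 to 720 CPM in knockout and 639 to 689 CPM in wild type. Whether the members and these genes differ in their change was not tested.

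Markers of other testis cells moved in the same libraries, and their part in the changes above was not tested. The counts below stand beside 27.4% lower and 26.2% higher over all tested genes. Lower were 11 of 12 Sertoli cell markers (summed level 1232 to 1396 CPM in knockout and 1837 to 2076 in wild type), which bears on Etv5 and the niche factors. Lower too were 8 of 8 Leydig cell markers (942 to 1059 against 1811 to 2100 CPM) and 5 of 6 peritubular myoid markers (91.6 to 115 against 146 to 167 CPM). Of the macrophage markers 4 of 6 fell (56.7 to 64.7 against 78.9 to 98.1 CPM), of the endothelial markers 1 of 6 (2 with library totals, with the stricter filter or without knockout replicate 1 or wild-type replicate 4; 27.4 to 33.1 against 30.5 to 36.6 CPM) and of the spermatocyte markers 5 of 7 (861 to 1033 against 1045 to 1274 CPM).

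Spermatid markers went the other way, beside 26.2% of all tested genes called higher. All 6 round spermatid markers rose (1203 to 1293 CPM in knockout against 786 to 910 in wild type), among them the sperm-egg fusion gene Izumo1 by 0.85 on the log2 scale. All 6 elongating spermatid markers rose as well (16335 to 19182 against 10515 to 13393 CPM), with the protamine gene Prm2 up by 0.70. No marker of any list was at 0 in all libraries. The 10 genes together took 80.6 to 87.4 CPM in knockout and 98.2 to 113 CPM in wild type.

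**Figure D4:**
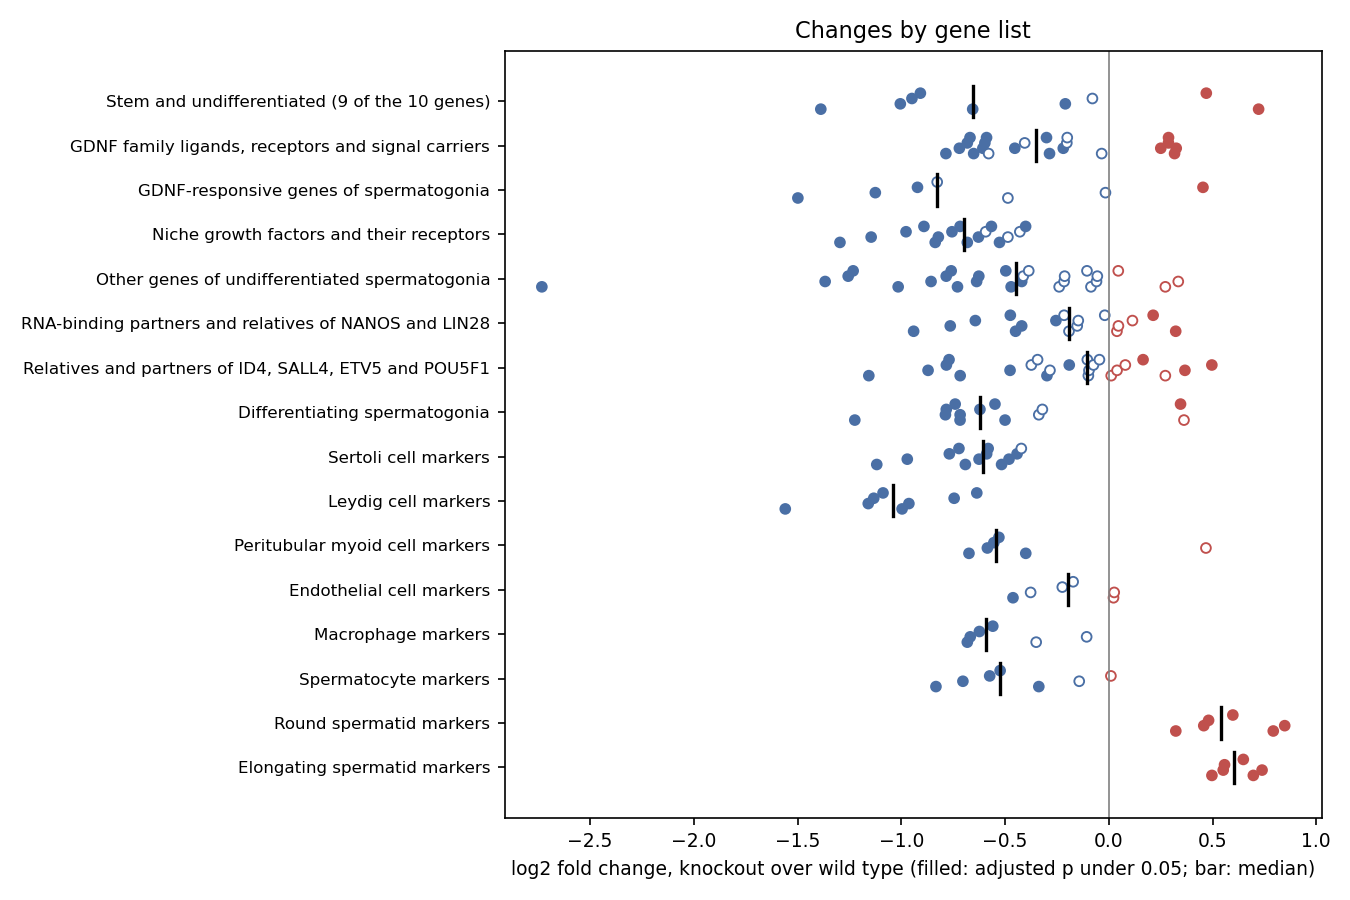
Log2 fold change of knockout over wild type for every tested gene of the 16 lists, 1 point per gene, blue below 0 and red above, filled where adjusted p was under 0.05, with a black bar at each list's median. The top row holds 9 of the 10 stem cell genes, with Gfra1 and Pou5f1 to the right of 0; the spermatid rows lie to the right of 0 and the somatic rows mostly to the left.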

How the data were processed

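Bulk RNA-seq of adult testis was analysed in 8 libraries, 4 per genotype. The authors deposited raw counts per Ensembl gene, whole numbers without normalization. The tools named, per the submitters' processing notes, are STAR, featureCounts, Trimmomatic, FastQC and DESeq2, with build mm39. Their settings, the annotation, strand use and multi-mapping rule were not given in the sources used here, so reads of overlapping or near-identical genes can be misassigned. Libraries were TruSeq RNA preparations of DNase-treated total RNA, per the labels' protocols.

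Symbols, exon lengths and overlaps came from the GENCODE annotation of GRCm38 (52073 genes named), and start regions from RefSeq on GRCm38.p6; that build differs from mm39, so no gene coordinates are given beyond those of the windows printed. Counts were fitted with edgeR 4.0.16 in R 4.3.3 (quasi-likelihood test, genotype as the only term, filterByExpr with minimum count 10 and total 15, TMM), checked on simulated counts. P-values were adjusted by Benjamini-Hochberg over all tested genes. Ratios within libraries were compared by exact permutation, and intervals of count ratios are exact binomial and cover counting error only. A count of 0 allows up to 3 counts, or 0.123 to 0.166 CPM of a library's total.

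The members and lists were chosen with earlier results of these data known. The text names every member and, of each other list, up to 4 called genes with the smallest p and all called in a direction where these are 5 or fewer; other genes, among them Lin28b, Nanos1, Gdnf, Bcl6b, Lhx1, Cxcr4, Eomes, Shisa6, Pax7, Neurog3 and Pdx1, were named after their values were seen. One gene that the rule names is not reported here. Alternatives were other scalings and filters, DESeq2 1.42.0, leaving out each library, and the replicate number as a block. The fixed lists were those counted in the report, which names only some of their genes. Some lists share genes, among them Cxcr4 and Lin28b.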

Additional observations from a re-analysis of the deposited data

Results flagged for a closer look

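In groups of 4 libraries, a library was picked out where its distance to the nearest other exceeded Dixon's 95% critical share of the group's range. Chance does this in about 1 of 20 groups, and 10 of 164 groups examined met it. Among the stem cell genes this applied to Zbtb16, at 4.54 CPM in knockout replicate 3 against 3.65 to 3.76 in the other knockout libraries. Among spermatogonial and pathway genes, Kit was at 45.3 CPM in wild-type replicate 2 (34.5 to 36.0 in the others), Ccnd2 at 5.53 in knockout replicate 4 (3.97 to 4.12), Dmrt1 at 35.2 in wild-type replicate 4 (30.2 to 31.1) and Artn at 6.23 in wild-type replicate 1 (5.58 to 5.69). Among markers of other cells, Inha was at 54.8 CPM in knockout replicate 2 (63.9 to 65.5 in the others), Hsd3b6 at 174 in wild-type replicate 1 (212 to 215), Csf1r at 13.3 in knockout replicate 1 (8.92 to 9.51), Cd163 at 2.07 in knockout replicate 2 (1.51 to 1.56) and Catsper4 at 77.1 in wild-type replicate 2 (91.9 to 94.9).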

How the results depend on the processing

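In each of the 14 alternative fits, 6 of the 10 genes were called lower and 2 higher, and no call among them changed. Adjusted p over these settings ran up to 0.0435 for Id4 (without knockout replicate 2) and 0.0218 for Gfra1 (library totals). Nanos3, never called, was at a log2 fold change of -0.34 without wild-type replicate 3 and turned to a log2 fold change of 0.08 without wild-type replicate 1 and 0.10 without wild-type replicate 4. Replicates 1 and 4 held its highest wild-type levels (1.13 and 1.15 CPM) and replicate 3 its lowest (0.389 CPM). Why these libraries differed was not tested. Nanos3 was not tested under the filter of CPM of at least 1 in 4 libraries, and the depth, 62 to 73 counts a group, limits what can be said of it and of Nanos2. Calls over all genes ran from 10384 to 12164.

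The replicate numbers are not stated to pair the libraries. Deviations of same-numbered libraries correlated at 0.0020 to 0.0798, and those of differently numbered libraries at -0.0657 to 0.0406. Knockout replicates 1, 2 and 3 correlated best with their own number (0.0798, 0.0225 and 0.0606), and knockout replicate 4 did not. With the replicate number as a block 12118 genes were called in place of 11752; the ratio differences stayed at 1.88 (Gfra1 to Ret), 0.66 (Id4 to Zbtb16) and 1.74 (Pou5f1 to Sall4), but sign flips of 4 pairs cannot give a p below 0.125. Leaving out each library in turn, the log2 ratio differences ran from 1.75 to 2.06, 0.52 to 0.78 and 1.61 to 1.88, and for Nanos2 to Nanos3 from -1.14 to -0.08. For Id4 to Zbtb16 the exact permutation p was 0.0571 when any one of the 4 knockout libraries was left out. The log2 difference was then 0.63, 0.67, 0.73 and 0.61 without knockout replicates 1 to 4. With so few libraries this p moves only in coarse steps.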
